A study of Dicentrarchus labrax with 30 samples.

Results

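NPY, CRHBP and CPE are genes of peptide signalling and peptide maturation, and their transcripts were counted in 3 organs (pituitary, whole brain and head kidney) of the European sea bass, Dicentrarchus labrax, in fish scored as bold or shy. Members were all rows of the count table whose symbol was NPY, CRHBP or CPE, with identifiers kept apart. These were 4 of 26719 rows: NPY DLAgn_00061520, CRHBP DLAgn_00081770, CRHBP DLAgn_00120190 and CPE DLAgn_00183710. The table gives no genome position for them. RNA-seq libraries came from 10 fish sampled at 478 days post-fertilization, and each tissue had 5 shy libraries (3 female, 2 male) and 5 bold libraries (2 female, 3 male). Risk-taking was scored in 4 tests over 7 months by how long each fish stayed in its shelter, and the fish were extremes chosen on the first 3 tests. Bold fish left quickly each time, and shy fish never left or took very long. The labels name no strain or added treatment. They do not say which libraries came from the same fish. Tests between tissues therefore treat all libraries as independent, although the fish are shared.

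Neuropeptide Y (NPY) is a peptide transmitter of brain neurons, known in vertebrates for stimulating feeding. CRHBP is a secreted protein that binds corticotropin-releasing hormone and related urocortins and limits their access to receptors. In fish, that hormone acts on pituitary cells that release adrenocorticotropic hormone, which drives cortisol output from interrenal cells in the head kidney. Carboxypeptidase E (CPE) works inside secretory granules, where it trims basic residues from peptides that prohormone convertases have cut out of their precursors.

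Pituitary libraries held 3808645 to 12550808 counted reads, brain libraries 7916478 to 20067656 and head kidney libraries 4667992 to 26837997. Levels below are in CPM, read counts relative to library size, scaled with TMM factors over all 30 libraries, and replicates are named shy 1 to 5 and bold 1 to 5 within a tissue. A named marker of each tissue followed its label. Thyrotropin beta (TSHB DLAgn_00096090) averaged 2432 CPM ± 653 (SD, n = 10) in pituitary. SNAP25 DLAgn_00066930 of nerve terminals averaged 1129 ± 335 in brain, and the steroidogenic gene STAR DLAgn_00115570 averaged 295 ± 149 in head kidney. The summed interrenal and chromaffin markers did not set head kidney apart from brain, as given below. Some libraries stood apart. Transcripts of ribosomal proteins took 3.02% and 1.88% of the reads in pituitary shy 1 and shy 2, against 4.06% to 5.61% in the other pituitary libraries, and these were the only shy male pituitaries. In brain shy 4 the share was 0.0191%, against 1.68% to 2.86% in the other brains. This library was unusual in other ways too. It had 19165 genes detected, against 22129 to 23421 in the other brains. Its TMM factor was 0.82, against 1.22 to 1.32, and a lower factor gives a higher CPM for the same counts. Pituitary bold 3 held 1076 reads of galanin (GAL DLAgn_00174350), which had 0 to 3 reads in each other pituitary.

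NPY was detected almost only in brain. In shy brains 1 to 5 it stood at 0.98, 2.98, 0.75, 0.69 and 1.55 CPM, and in bold brains 1 to 5 at 0.32, 1.1, 1.22, 2.37 and 1.28 CPM. All 10 brain libraries lay above every pituitary and head kidney library. The brain mean of 1.32 CPM ± 0.80 (SD, n = 10) rested on 214 reads, 6 to 62 per library, so each value carries a large counting error. The pituitary libraries held 1 NPY read in all, in shy 4, and the head kidney libraries held 0, which allows up to 0.0273 CPM over that group at a floor of 3 reads. The summed brain level was 122-fold the pituitary level, with a 95% counting interval of 21.7 to 4843, and at least 48.4-fold higher than in head kidney. By edgeR's quasi-likelihood test over all 30 libraries, with Benjamini-Hochberg adjustment over 21090 genes, the adjusted p was 5.18e-06 against pituitary and 1.25e-06 against head kidney. In bulk tissue, fewer cells of a type and less RNA per cell cannot be told apart, here and in every level below. Counting intervals and floors cover counting error only.

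CRHBP DLAgn_00081770 was low and very uneven between pituitaries. It measured 0.22, 0.66, 6.12, 14.0 and 1.86 CPM in shy pituitaries 1 to 5 and 10.2, 0.25, 4.59, 0 and 16.6 CPM in bold pituitaries 1 to 5, on 0 to 225 reads. High and low libraries occurred in both behavior groups, and the mean of 5.46 ± 6.17 (SD, n = 10) had a coefficient of variation of 113%. The SD of its log2 CPM over the 10 pituitaries, 2.41, was larger than that of 99.8% of the 17855 genes tested there. The summed level of neuron markers ran from 1038 to 1364 CPM in 9 pituitaries and was 1746 in bold 3, where this row stood at 4.59. The part of neural tissue in its values was not tested.

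Brain libraries were more alike for the same row. CRHBP DLAgn_00081770 stood at 7.12, 6.81, 7.26, 1.04 and 5.74 CPM in shy brains 1 to 5 and at 7.86, 5.38, 7.53, 5.85 and 7.70 in bold brains 1 to 5. Only shy 4, the brain with the low ribosomal share, fell outside 5.38 to 7.86. Brain and pituitary did not differ beyond their spread, with a log2 difference of 0.27 (SE 0.65, 95% interval -1.11 to 1.64) and an adjusted p of 0.741 by edgeR's quasi-likelihood test. Limma's voom with quality weights gave 1.52 (adjusted p = 0.0135), and leaving out pituitary shy 1 and 2 and brain shy 1 and 4 gave -0.12. Its levels in 3 of 10 pituitaries lay above every brain. Head kidney held 0 reads, so the brain level was at least 240-fold higher (adjusted p = 2.54e-06) and the pituitary level at least 249-fold higher (adjusted p = 4.88e-06).

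CRHBP DLAgn_00120190 was detected in every tissue and was by far highest in pituitary. It measured 735, 202, 801, 376 and 399 CPM in shy pituitaries 1 to 5 and 395, 502, 530, 494 and 388 CPM in bold pituitaries 1 to 5, a mean of 482 ± 177 (SD, n = 10). In brain it stood at 5.91, 5.28, 6.28, 0.115 and 5.38 CPM in shy 1 to 5 and at 4.06, 7.32, 5.83, 5.09 and 6.36 in bold 1 to 5, and the value of shy 4 was 1 read. In head kidney it ran from 0.84 to 2.12 CPM, on 4 to 33 reads per library. Each pituitary library lay above each library of the other tissues, and 9 of 10 brains lay above each head kidney. The mean pituitary level was 93.4-fold the brain level and 365-fold the head kidney level, and the brain level was 3.91-fold the head kidney level. In edgeR's fit, brain minus pituitary was -6.55 on the log2 scale (SE 0.35, adjusted p = 2.1e-14), pituitary minus head kidney 8.47 (SE 0.39, adjusted p = 2.42e-16) and brain minus head kidney 1.92 (SE 0.33, adjusted p = 9.58e-06).

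The rows that carry the CRHBP symbol thus differed in their pituitary level, and only DLAgn_00120190 had reads in head kidney. Pituitary bold 4 held no read of DLAgn_00081770 and 494 CPM of DLAgn_00120190, and brain shy 4 was the lowest brain for both. How reads that match both sequences would have been counted is not given in the sources used here.

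**Figure D1:**
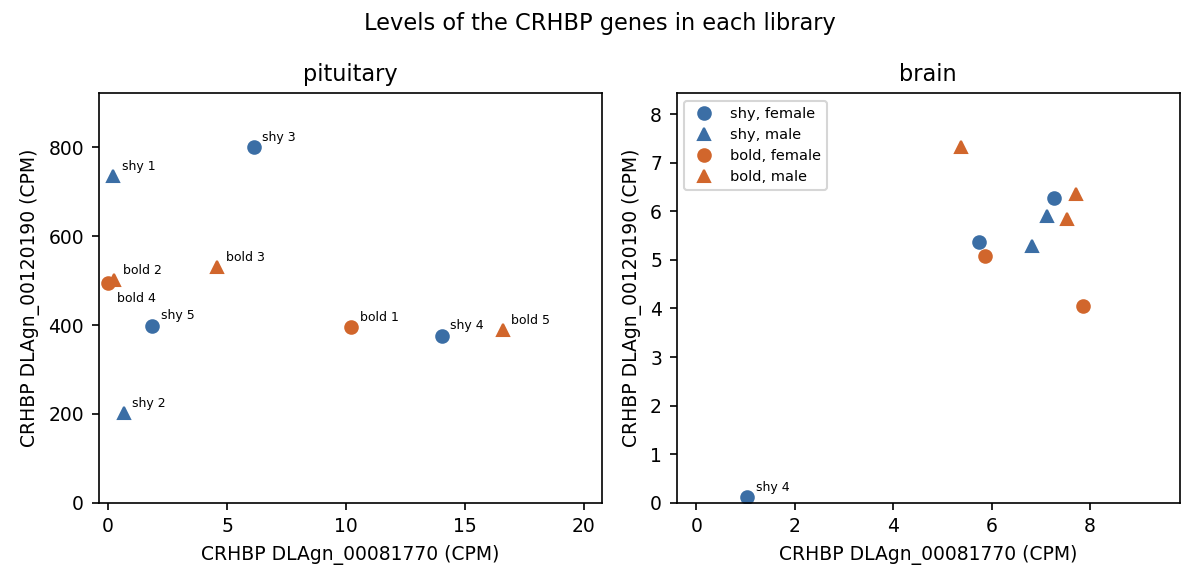
CRHBP DLAgn_00081770 plotted against CRHBP DLAgn_00120190, both in CPM, with 1 point per library of pituitary and brain, shy and bold marked apart. The pituitary points run from 202 to 801 CPM on the axis of DLAgn_00120190 and from 0 to 16.6 on that of DLAgn_00081770, and 9 of the 10 brain points lie close together.

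CPE was abundant in both pituitary and brain and low in head kidney. Shy pituitaries 1 to 5 held 1172, 936, 1111, 1240.3 and 1072 CPM and bold pituitaries 1 to 5 held 1110.1, 1278, 1083, 1119.6 and 1179 CPM. The groups overlapped throughout, and the SD of log2 CPM, 0.125, was larger than that of only 2.06% of the pituitary genes. Shy brains 1 to 5 held 1060.1, 821, 769, 1676 and 773 CPM and bold brains 1 to 5 held 786, 758, 732, 742 and 687 CPM. Head kidneys held 7.77, 6.56, 6.75, 3.28 and 8.50 CPM in shy 1 to 5 and 2.17, 3.20, 2.85, 4.52 and 5.20 CPM in bold 1 to 5, on 13 to 95 reads. The mean brain level was 173-fold and the mean pituitary level 222-fold the head kidney level. Both differences passed edgeR's test, with log2 differences of 7.48 (SE 0.23, adjusted p = 5.42e-20) and 7.86 (SE 0.23, adjusted p = 6.19e-20).

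Brain and pituitary CPE lay close to the threshold. Brain minus pituitary was -0.38 on the log2 scale (SE 0.17, 95% interval -0.73 to -0.03) with an adjusted p of 0.0518. Without brain shy 4, the brain with the highest CPE, the difference was -0.51 and its adjusted p 0.00121, and without pituitary shy 1 and 2 and brain shy 1 and 4 it was -0.60 with an adjusted p of 0.000719. Brain shy 4 and 1 held the highest brain values, and pituitary shy 2 the lowest pituitary value. Leaving them out makes the difference more negative in any case. With edgeR over all 30 libraries, 2 of 4 members passed between brain and pituitary, where 64.3% of all genes tested did. All 4 passed between brain and head kidney, against 81.4% of all genes, and 3 of 4 had a called difference between pituitary and head kidney, against 75.4%. With shares of all genes this high, the counts of members are no result about these genes.

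**Figure D2:**
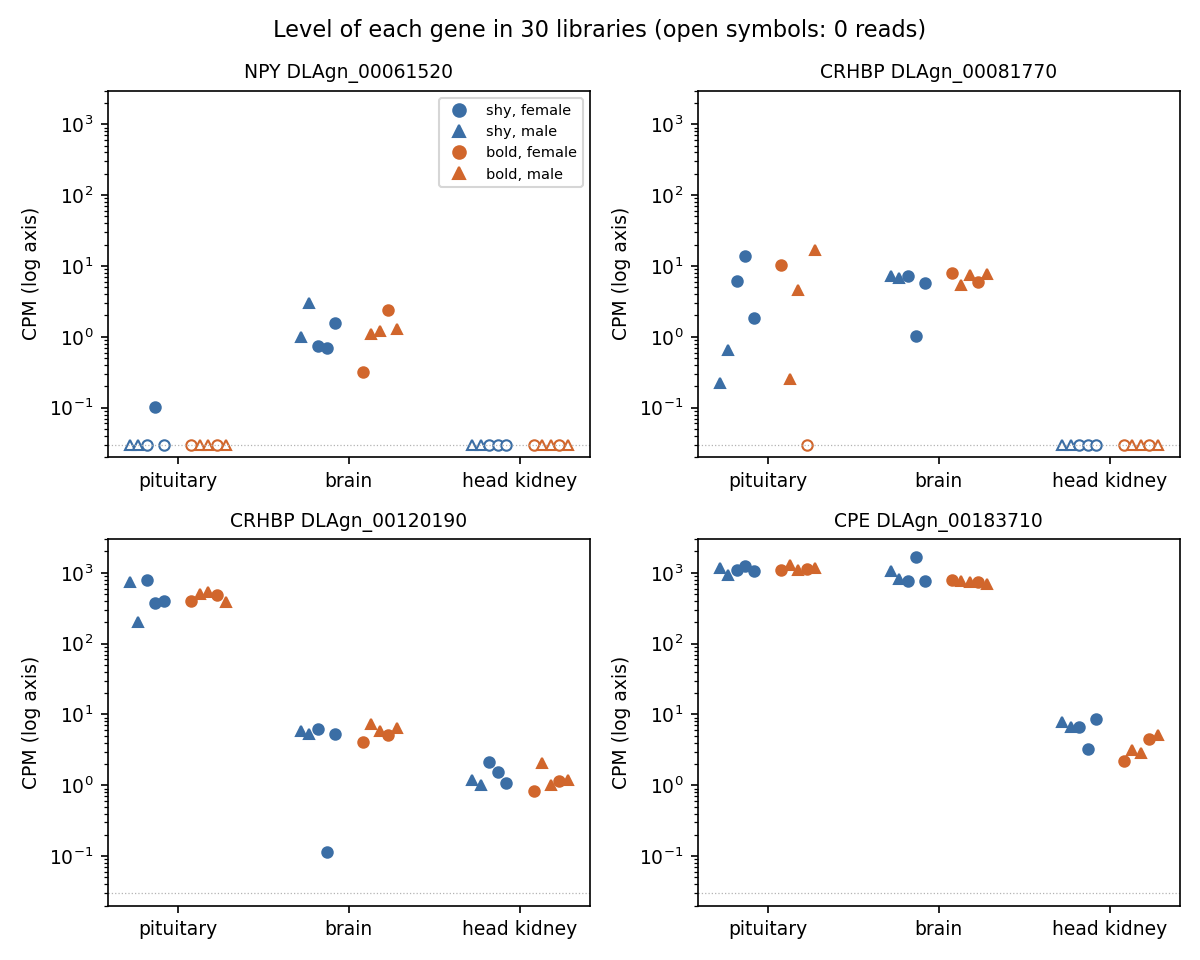
CPM of the 4 rows on a log axis, 1 panel per row and 1 point per library, by tissue with shy and bold marked apart; open symbols are libraries with 0 reads. NPY has its points in brain, CRHBP DLAgn_00120190 lies highest in pituitary at 202 to 801 CPM, and CPE lies at 687 to 1676 CPM in pituitary and brain and at 2.17 to 8.50 in head kidney.

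The study's main question was whether bold and shy fish differ in gene expression. The comparison was made separately in each tissue by edgeR's quasi-likelihood test, with sex as a covariate. None of the 9 tests of members passed an adjusted p of 0.05. The background was as sparse: 0% of 17855 pituitary genes, 0.00519% of 19250 brain genes and 0.0061% of 16391 head kidney genes passed. These were DLAgn_00265390 in brain (log2 fold change -3.48, adjusted p = 0.0407) and DLAgn_00202850 in head kidney (1.56, adjusted p = 0.0458), which have no symbol and are named because they were the only calls by edgeR. At an unadjusted p under 0.05 there were 3175 genes in pituitary, 282 in brain and 1815 in head kidney, and DESeq2 called 691, 3 and 134. CPE in head kidney was the member that passed an unadjusted 0.05, and no member was called by DESeq2 or by limma's voom.

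NPY averaged 1.39 CPM ± 0.95 (SD, n = 5) in shy and 1.26 ± 0.73 in bold brains. Bold minus shy was -0.13 on the log2 scale with an SE of 0.58, and the 95% interval of -1.44 to 1.18 spans more than a doubling in either direction. The adjusted p was 0.969 by edgeR's quasi-likelihood test.

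For CRHBP DLAgn_00081770, bold minus shy was 1.23 in pituitary (SE 1.56, 95% interval -2.30 to 4.76, adjusted p = 0.675 by edgeR). The interval is the widest of the 9 tests, and the difference of mean log2 CPM without the sex term was -0.003 (exact two-sided permutation p = 0.992), or -0.33 with a prior count of 0.5. Leaving out 1 pituitary gave 0.50 (without bold 5) to 2.31 (without bold 4) for edgeR's value, with 0.56 without shy 1, 0.51 without shy 2 and 1.91 without shy 4. In brain it was 0.26 (SE 0.45, 95% interval -0.76 to 1.27, adjusted p = 0.911).

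For CRHBP DLAgn_00120190, shy pituitaries averaged 503 CPM ± 255 (SD, n = 5) and bold pituitaries 462 ± 65.5. The shy group held both the highest and the lowest pituitary values, 801 and 202 CPM, and enclosed all bold values. Bold minus shy was -0.14 in pituitary (SE 0.33, 95% interval -0.87 to 0.60), 0.21 in brain (SE 0.65, 95% interval -1.26 to 1.67) and -0.19 in head kidney (SE 0.39, 95% interval -1.05 to 0.66). The adjusted p-values by edgeR were 0.836, 0.953 and 0.892. Without brain shy 4 the shy brain mean was 5.71 ± 0.47 and the log2 difference in brain -0.06.

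**Figure D3:**
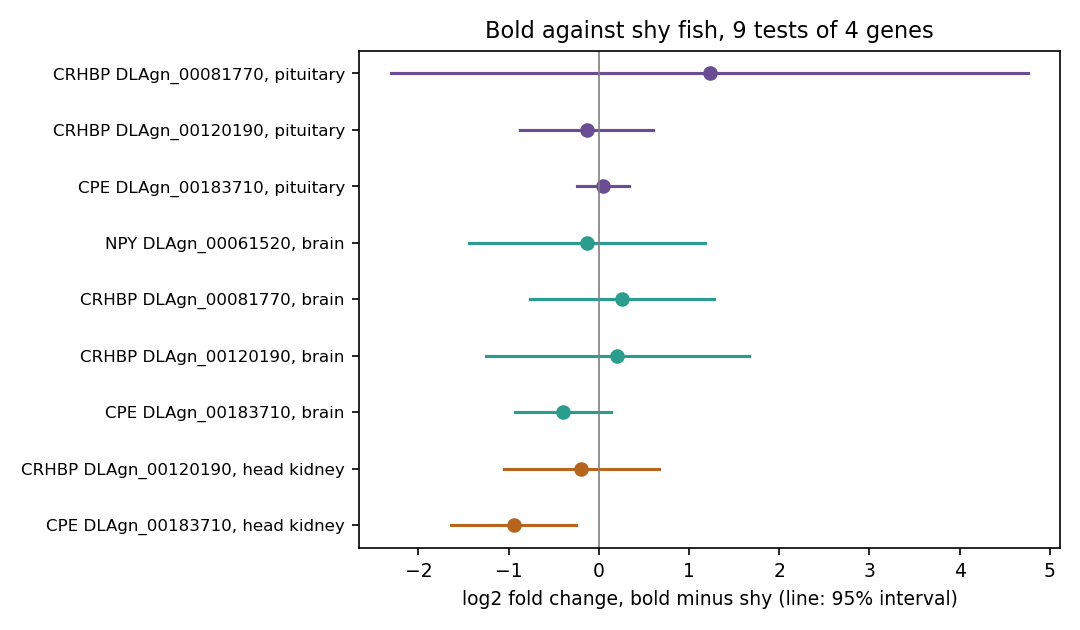
Bold minus shy log2 fold change of each member in each tissue where it was tested, with its 95% interval, from edgeR with sex as a covariate. Of the 9 intervals, that of CPE in head kidney, -1.64 to -0.25, does not reach 0, and its adjusted p of 0.354 did not pass 0.05.

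CPE gave the largest difference relative to its error. In head kidney, shy libraries averaged 6.57 CPM ± 2.00 (SD, n = 5) and bold libraries 3.59 ± 1.24. Shy 1, 2, 3 and 5 lay above every bold library, and shy 4, at 3.28, lay among them. Bold minus shy was -0.94 on the log2 scale (SE 0.32, 95% interval -1.64 to -0.25), with an adjusted p of 0.354 by edgeR's quasi-likelihood test. Its unadjusted p in that edgeR fit, 0.0121, ranked 561 among the genes tested. An unadjusted p under 0.05 was reached by 11.1% of all head kidney genes. The exact two-sided permutation p was 0.0397, and 0.357 after adjustment over the 18 permutation tests, in which the smallest p possible is 0.00794. The log2 difference ran from -1.17 to -0.81 over all alternatives and left-out libraries, with adjusted p-values of 0.197 to 0.64.

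Head kidney is a mixture of interrenal, chromaffin and blood-forming cells. The sum of 17 interrenal and chromaffin marker rows was 385 to 641 CPM in shy and 277 to 1094 in bold head kidneys. Bold 5 had the highest sum, and the other 4 bold libraries ran from 277 to 388. In brain the same sum ran from 635 to 858 CPM in shy and from 618 to 974 in bold. It is thus not particular to head kidney. The neuron marker sum ran from 22.2 to 49.7 CPM in shy and from 33.9 to 53.1 in bold head kidneys. The blood cell marker sum ran from 152120 CPM in shy 4 to 383767 in shy 5, and from 209808 to 280142 in bold. Of 20 blood cell markers tested for bold minus shy, 10 were positive and 10 negative, with a median of 0.05 and no call. By edgeR 4 of them had an unadjusted p under 0.05, which 11.1% of all genes had. These were PTPRC DLAgn_00235410 (0.49), PTPRC DLAgn_00220740 (0.32), CD79A DLAgn_00058180 (0.59) and GATA1A DLAgn_00089430 (-0.47). The list holds genes of red and white blood cells together, so its median does not describe either. Of the interrenal and chromaffin rows, 7 could be tested: 2 had a positive and 5 a negative bold minus shy value, with a median of -0.24 and no call. Among 17 processing and granule genes tested there, 11 values were positive and 6 negative, with a median of 0.08 and no call. The part of cell makeup in the CPE values was not tested.

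In brain, CPE averaged 1019.9 CPM ± 386 (SD, n = 5) in shy and 741 ± 36.5 in bold libraries, and 4 of 5 bold brains lay below every shy brain. Bold minus shy was -0.40 (SE 0.24, 95% interval -0.93 to 0.13) with an adjusted p of 0.89 by edgeR's test. The exact two-sided permutation p was 0.0317, or 0.357 adjusted over the 18 tests. Shy 4 and shy 1 held the highest values, so leaving them out lowers the shy mean in any case. Without both, the shy mean was 788 ± 28.7 and the log2 difference -0.11. The difference kept its negative sign in all 19 alternatives, from -0.47 to -0.11. In shy 4 the summed level of the prohormone processing and granule genes was 7822 CPM, against 2855 to 3688 in the other brains. The low TMM factor of shy 4, 0.82, raises both this sum and its CPE level relative to the other brains. In pituitary, CPE averaged 1106 ± 115 in shy and 1154 ± 77.7 in bold, a log2 difference of 0.04 (SE 0.13, 95% interval -0.25 to 0.33, adjusted p = 0.873).

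**Figure D4:**
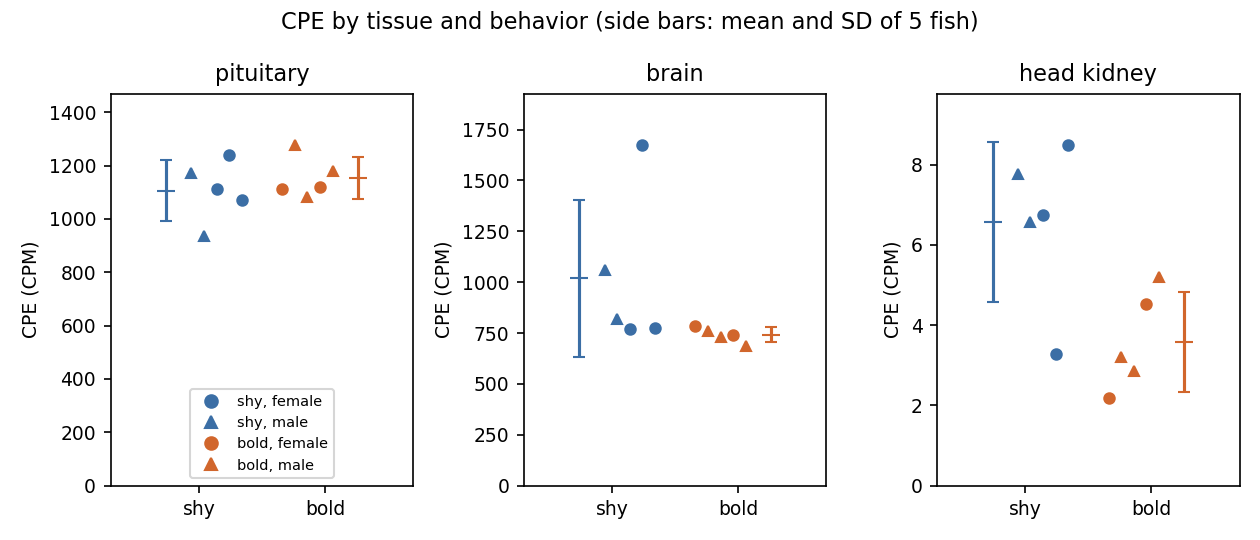
CPM of CPE in shy and bold libraries of each tissue, 1 point per library with the mean and SD, on linear axes. In head kidney 4 of 5 shy points lie above all bold points; in brain the shy points of 1676 and 1060.1 CPM stand above the rest, and the pituitary groups overlap.

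Whether bold minus shy differed between tissues was tested directly. For CPE it was higher in pituitary than in head kidney by 0.94 (SE 0.37, adjusted p = 0.864 by edgeR). It was higher in brain than in head kidney by 0.44 (SE 0.36, adjusted p = 1). The brain value minus the pituitary value was -0.50 (SE 0.35, adjusted p = 0.988). By edgeR 0% of genes passed in each of these 3 comparisons, and no member did. Unadjusted p-values under 0.05 numbered 906 for brain against pituitary, 756 for brain against head kidney and 1175 for pituitary against head kidney. DESeq2 called 17, 13 and 25 genes, and limma's voom called 10 for brain against head kidney.

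Sex was tested in the same fits, and no member passed in any tissue. Of all genes, 0% passed in pituitary, brain or head kidney, where 2345, 94 and 601 had an unadjusted p under 0.05 and DESeq2 called 0, 1 and 7. NPY averaged 1.14 CPM ± 0.82 (SD, n = 5) in female and 1.51 ± 0.83 in male brains, a log2 difference of 0.40 (SE 0.58, adjusted p = 1). CRHBP DLAgn_00081770 averaged 6.45 ± 5.80 in female and 4.47 ± 7.03 in male pituitaries, a log2 difference of -1.23 (SE 1.55, adjusted p = 0.714) that ran from -2.32 to -0.51 with 1 library left out. CRHBP DLAgn_00120190 in brain gave the lowest exact two-sided permutation p for sex, 0.0794 (0.476 adjusted over the 18 tests), for males 1.09 higher in mean log2 CPM. In edgeR's fit that difference was 0.50 (SE 0.65), and 0.25 without brain shy 4, a female with 1 read of this row. For CPE, male minus female was 0.00 in pituitary, -0.10 in brain and 0.19 in head kidney.

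The behavior difference was also compared between the sexes. In pituitary 8.6% of 18399 genes passed this interaction, and no member did. Those pituitary calls coincide with the design: the shy male pituitaries were shy 1 and shy 2, the libraries of low ribosomal share, so sex within shy fish and that property cannot be told apart. CRHBP DLAgn_00081770 had the largest value, 4.24 (SE 2.76, adjusted p = 0.399), and its shy male pituitaries stood at 0.22 and 0.66 CPM. It was 2.68 without bold 5. Without bold 1 the fit gave 12.8, but the only bold female pituitary left was then bold 4, with 0 reads. That value is set by the 0 and gives no size of effect. In brain 0% and in head kidney 0.0237% of genes passed by edgeR, where brain had 94 unadjusted p-values under 0.05 and DESeq2 called 2. The head kidney calls were APOC1, AMBP, DLAgn_00005730 and DLAgn_00082150, named because they were so few. NPY had an interaction of -1.19 in brain (SE 1.18, adjusted p = 1).

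Genes of the same pathways were described by lists. The NPY family held 9 rows other than NPY, of which 4 were higher in brain than in pituitary and 1 was lower among 8 tested, a share near the 64.3% of all genes. None passed for behavior. PYYA DLAgn_00196250, a peptide YY gene, averaged 25.9 CPM in brain and 0.92 in pituitary (log2 difference 5.61, adjusted p = 8.98e-10). NPY8AR, a receptor found in fish, stood at 10.2 CPM in brain and 0.47 in pituitary (5.08, adjusted p = 4.54e-08). NPY2R, another receptor of the family, averaged 1.18 CPM in brain and 0 in head kidney. The peptidase gene DPP4 DLAgn_00138260, whose product trims NPY and peptide YY in mammals, was highest in head kidney at 88.1 CPM. The behavior difference of PYYA DLAgn_00196250 in pituitary, 3.29 (SE 0.85), had an adjusted p of 0.23.

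For the corticotropin-releasing hormone system, 21 symbols were searched, CRH and POMC among them, and 6 rows were matched. Levels of the CRH and POMC genes themselves are not given here. By edgeR 3 rows were higher in brain than in pituitary and 2 were lower, of 6 tested, where 64.3% of all genes passed. CRHR1, the receptor of that hormone on pituitary corticotrophs, was higher in pituitary, at 15.5 CPM against 1.16 in brain and 0 in head kidney (brain minus pituitary -3.71, adjusted p = 1.93e-09). CRHR2, the receptor preferred by urocortins, had the opposite order, at 14.1 CPM in brain and 1.00 in pituitary (3.87, adjusted p = 4.71e-07). The urocortin gene UCN3 DLAgn_00208230 stood at 12.2 CPM in brain and 0.036 in pituitary. MRAP2, a melanocortin receptor accessory protein, stood at 11.7 CPM in pituitary and 2.19 in brain (-2.38, adjusted p = 1.26e-05). Thus the receptor CRHR1 and CRHBP DLAgn_00120190 both had their highest level in pituitary. CRHR1 averaged 12.1 CPM ± 3.1 (SD, n = 5) in shy and 18.9 ± 5.8 in bold pituitaries, a log2 difference of 0.69 (SE 0.24) with an adjusted p of 0.238 by edgeR.

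Prohormone processing and granule genes other than CPE formed 37 rows. Of 32 tested over all libraries, 8 were higher in brain than in pituitary and 14 were lower, with a median log2 difference of -0.17 against 0.08 over all genes, of which 64.3% passed. Against head kidney, 24 were higher and 7 lower in brain, where 81.4% of all genes passed, and 23 were higher and 6 lower in pituitary, where 75.4% did. CPE, at -0.38 between brain and pituitary, lay far from the ends of this range. SCG3 averaged 8355 CPM in pituitary, 144 in brain and 0.91 in head kidney (-5.87, adjusted p = 2.37e-13). The convertase PCSK2, which cuts prohormones before CPE trims them, stood at 2366 CPM in pituitary and 169 in brain (-3.79, adjusted p = 4.59e-12), and the convertase PCSK1 at 457 and 175 (-1.45, adjusted p = 1.32e-05). CPD, a related carboxypeptidase, stood at 177 CPM in pituitary, 56.3 in brain and 79.5 in head kidney (-1.65, adjusted p = 7.26e-14). PAM, which amidates peptides after CPE has acted and was named for that role after its values were seen, stood at 567 and 555 CPM (-0.11, adjusted p = 0.673).

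No gene of the processing list passed for behavior in any tissue. In pituitary 25 of 30 had a positive bold minus shy value, with a median of 0.41 against 0.01 over all genes, and 9 had an unadjusted p under 0.05, which 17.8% of all genes had. Values of cell type markers were mostly positive there as well, and none was called. Positive were 8 of 10 pituitary hormone cell markers (median 0.50), 17 of 22 neuron markers (median 0.27) and 8 of 11 glia and myelin markers (median 0.71). The glia and myelin list is not particular to brain. Of 27 rows tested, 11 were higher and 16 lower in brain than in head kidney, where 81.4% of all genes passed. Within the processing list, the lowest p was that of CPXM1 DLAgn_00026450, a carboxypeptidase-like gene, at 0.71 (SE 0.17, adjusted p = 0.23). These pituitary values share the low ribosomal shares of shy 1 and shy 2, whose part was not tested. In the pituitary interaction of behavior and sex, 3 of 30 passed, a share near the 8.6% of all genes: SCG2 DLAgn_00005210 (1.44, adjusted p = 0.00436), PTPRN DLAgn_00136340 (1.55, adjusted p = 0.0174) and PTPRN2 DLAgn_00077140 (1.68, adjusted p = 0.00208). In the same interaction 5 of 10 pituitary hormone cell markers and 4 of 24 neuron markers passed.

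**Figure D5:**
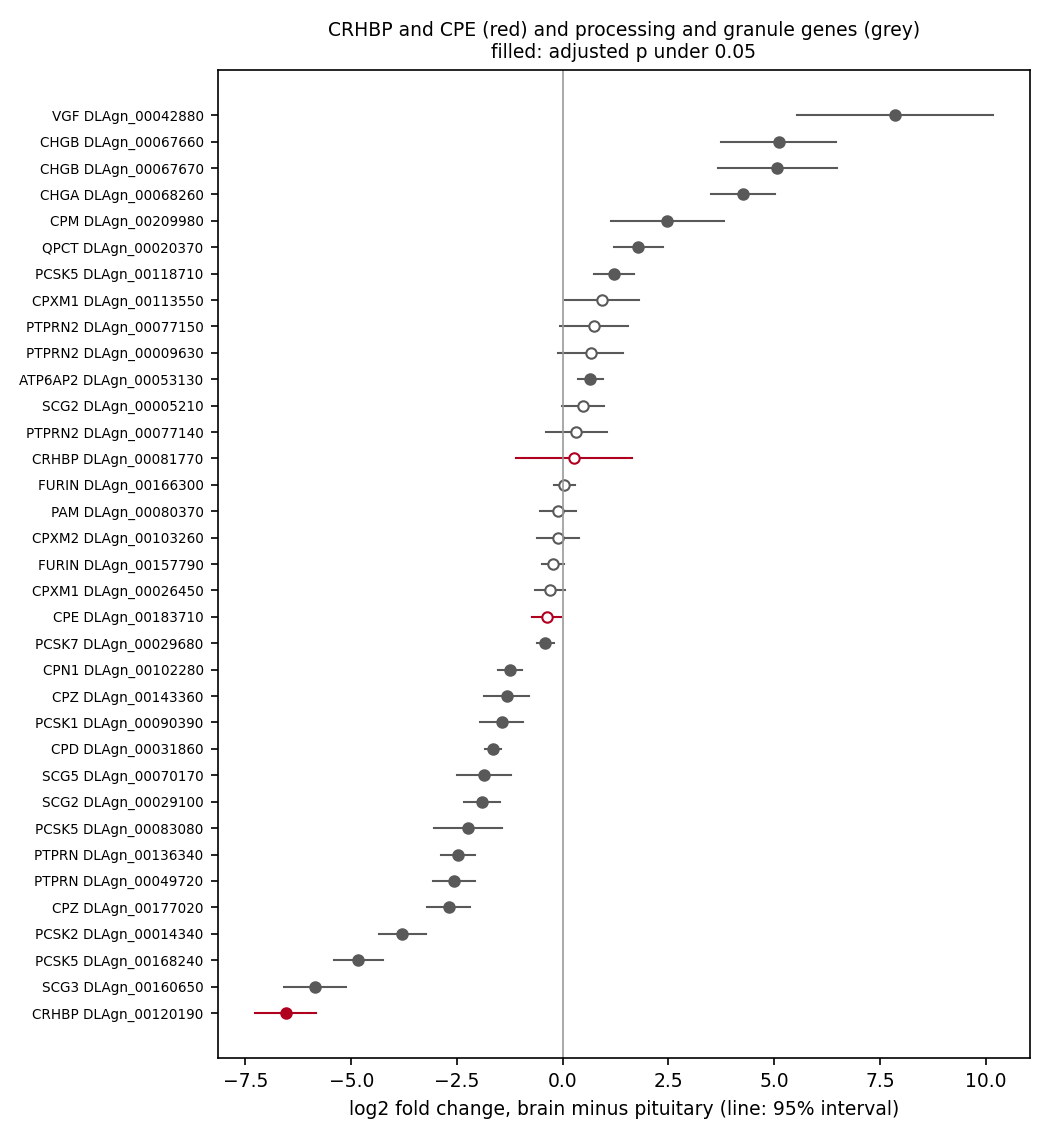
Brain minus pituitary log2 fold change for 35 rows: both CRHBP rows and CPE in red, and 32 processing and granule genes in grey, with filled points for an adjusted p under 0.05. CRHBP DLAgn_00120190 at -6.55 lies at the pituitary end beside SCG3 at -5.87, and CPE at -0.38 and CRHBP DLAgn_00081770 at 0.27 lie near 0.

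The genes whose pattern was most like each member's were listed by Pearson's r of log2 CPM over the 30 libraries, among 18313 rows. These libraries share 3 tissues, so r mostly describes the order of tissues. For NPY the closest were GPR116 (r = 0.966) and SLC18A3A (r = 0.965), the latter a vesicular acetylcholine transporter. For CRHBP DLAgn_00120190 the closest was GRP (r = 0.989), the gene of gastrin-releasing peptide, at 163 CPM in pituitary and 0.62 in brain. For CPE the closest was SEMA4G (r = 0.994), a semaphorin. For CRHBP DLAgn_00081770 the closest were SHISA6 (r = 0.903), MSANTD4 (r = 0.903) and JUN (r = 0.903). Within the 10 brains, SELRC1 had r = 0.9995 with that row, POLR3F 0.993 and RASL11B 0.991. They were picked as the highest among 18313 rows over 10 libraries, so these values of r are no test. The part of that pick in them was not tested. Without brain shy 4, r was 0.992 for the first, 0.856 for the second and 0.80 for the third.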

How the data were processed

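The authors deposited raw read counts per gene for 30 libraries, made from TruSeq stranded mRNA and sequenced as single 50 nt reads, per the labels. Per the submitters' processing notes, the tools included featureCounts 1.6.2, TopHat2 2.1.1 with Bowtie2 2.2.9, SAMtools 1.5, FastQC and bcl2fastq 2.20. Not given in the sources used here are the build of the genome, its annotation and the strand setting of the counting. Symbols came from the count table, and 5479 rows have none.

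Counts were tested in R 4.3.3 with edgeR 4.0.16 (TMM, filterByExpr, robust quasi-likelihood fit), with Benjamini-Hochberg adjustment over all genes tested and a threshold of 0.05. Within a tissue the model held behavior and sex, with their interaction in a second model. Tissues were compared in 1 fit over all 30 libraries. Log2 CPM used a prior count of 2. Alternatives used DESeq2 1.42.0, limma 3.58.1 (voom), other filters and left-out libraries. The procedure was tested on simulated data with the same extra spread between libraries for every gene and no library that stood apart. That test does not cover rows as uneven as CRHBP DLAgn_00081770 in pituitary, or a library such as brain shy 4. The labels describe separate fish within each tissue group, and no pair of libraries was identical.

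The members and lists were chosen with earlier results of these data known. Named are all members and, from each list, rows that passed for behavior or sex, otherwise at most 4 with the smallest p of a comparison, and the highest marker where a tissue label was checked.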

Additional observations from a re-analysis of the deposited data

Results flagged for a closer look

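Of 18 groups of 5 libraries examined (each member in the tissues where it was tested for behavior), 3 held a library flagged by Dixon's ratio. That is its gap to the nearest neighbour over the range of the group, set against a 95% limit. Chance alone flags about 5% of independent groups. These groups share libraries, and brain shy 4 gave 2 of the flags, so the count cannot be set against that rate. Both CRHBP rows were far below the rest of their group in brain shy 4: CRHBP DLAgn_00081770 at 1.04 CPM, where the other shy brains held 5.74 to 7.26, and CRHBP DLAgn_00120190 at 0.115 CPM, where they held 5.28 to 6.28. This is the library in which ribosomal protein transcripts took 0.0191% of the reads and in which CPE was highest of all brains, at 1676 CPM. Its low TMM factor, 0.82, raises that CPM relative to the other brains. CRHBP DLAgn_00120190 was high in head kidney bold 2, at 2.08 CPM against 0.84 to 1.19 in the other bold head kidneys. Its ratio, 0.712, was barely above the limit of 0.71, and the value rested on 28 reads.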

How the results depend on the processing

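Of the members' log2 fold changes under the alternatives, 918 kept their direction and side of the threshold, 67 changed sign and 12 passed anew. The alternative of an adjusted p under 0.10 kept the main fit and changed the threshold only. No member passed for behavior, sex, their interaction or a behavior difference between tissues under any alternative, and the cause of each change was not tested. Low read numbers limit NPY in brain, CRHBP DLAgn_00120190 and CPE in head kidney, and CRHBP DLAgn_00081770 in pituitary. No paired analysis was possible because the labels tie no libraries to a fish and carry no replicate number shared between tissues. Sex and behavior follow the same order within each tissue's labels, but order was not used to pair libraries, so tests between tissues leave shared fish out of account.

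The sign changed as follows. For CRHBP DLAgn_00081770, voom gave -0.36 for pituitary behavior, -0.013 for brain behavior, 0.033 for the brain interaction and 0.84 for behavior in brain against pituitary. Without pituitary shy 1 and 2 and the covariate, its behavior value was -0.16 and its sex value 0.16, and brain minus pituitary was -0.12 without those and brain shy 1 and 4. For CRHBP DLAgn_00120190, voom gave 0.13 for pituitary sex, -0.088 for brain behavior and -0.00229 for behavior in pituitary against head kidney. It was -0.12 for brain behavior without brain shy 1 and 4, and -0.026 for head kidney sex with no covariate. CPE sex was -0.030 in pituitary with no filter, -0.016 there with all libraries in 1 fit, -0.018 in head kidney with no covariate, 0.018 in brain by voom and 0.0028 in brain without shy 1 and 4; voom gave -0.36 for the brain interaction. Between brain and pituitary, voom called 4 members, with 1.52 for CRHBP DLAgn_00081770. CPE passed there by DESeq2 (-0.32), by voom (-0.59) and at an adjusted p under 0.10 (-0.38). It also passed without pituitary shy 1 and 2 and brain shy 1 and 4 (-0.60), which takes out the highest brain CPE. Leaving out 1 library gave -0.51 to -0.33 for brain minus pituitary CPE, and it passed without pituitary shy 2, brain shy 4 or any of head kidney shy 4, shy 5, bold 1, bold 4 and bold 5.

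Leaving out each library in turn also turned signs. NPY in brain ran from -1.01 to 0.41 for behavior, -0.12 to 1.31 for sex and -1.97 to 0.87 for the interaction. CRHBP DLAgn_00120190 ran from -0.40 to 0.26 for behavior, -0.42 to 0.25 for sex and -0.38 to 1.46 for the interaction in pituitary, from -0.056 to 0.43 for behavior and -0.49 to 0.59 for the interaction in brain, and from -0.17 to 0.23 for sex in head kidney. Its behavior value ran from -0.084 to 0.59 for brain against pituitary and from -0.25 to 0.42 for pituitary against head kidney. CPE ran from -0.019 to 0.093 for behavior and -0.046 to 0.072 for sex in pituitary, from -0.17 to 0.088 for sex and -0.34 to 0.22 for the interaction in brain, and from -0.56 to 0.40 for the interaction in head kidney.

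Counts of all genes called moved more. For pituitary behavior DESeq2 called 691, no filter 2 and all libraries in 1 fit 4, and left-out libraries gave 0 to 37. For brain behavior these were 3 by DESeq2, 0 with all libraries in 1 fit and 0 to 1. For head kidney behavior they were 134 by DESeq2, 0 by voom, 3 at an adjusted p under 0.10, 4 with no covariate, 16 with all libraries in 1 fit and 0 to 7. Sex gave 0 to 1 in pituitary with a library left out, 1 in brain by DESeq2, and 7 by DESeq2 and 0 to 1 with a library left out in head kidney. The pituitary interaction gave 770 by voom, 2606 at an adjusted p under 0.10, and 678 without shy 2 to 2076 without shy 1. It gave 2 in brain by DESeq2, and in head kidney 59 by DESeq2, 0 at a minimum of 1 CPM and 0 to 18 with a library left out. The behavior difference gave 17 by DESeq2 for brain against pituitary. For brain against head kidney it gave 13 by DESeq2, 10 by voom, 1 without brain shy 1 and 4 and 0 to 6 with a library left out. For pituitary against head kidney these were 25 by DESeq2, 7 without brain shy 1 and 4 and 0 to 7.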

Other observations

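Of 29 rows of other neuropeptide genes tested over all libraries by edgeR, 22 were higher in brain than in pituitary and 5 were lower, where 64.3% of all genes passed, 7337 higher and 6227 lower. PENK DLAgn_00000380, the precursor of enkephalins, was among the higher (adjusted p = 2.14e-07) and averaged 131 CPM in brain and 4.76 in pituitary, where bold 3 held 420 reads. Lower in brain were GRP DLAgn_00083470 (-8.01, adjusted p = 1.88e-13), TAC1 DLAgn_00056220, a tachykinin precursor (-6.60, adjusted p = 3e-12), and NMS DLAgn_00054110, a neuromedin gene (-5.28, adjusted p = 1.55e-09). A second TAC1 row, DLAgn_00221430, did not pass between the organs, at 0.67 (SE 0.41, adjusted p = 0.153). Pituitary bold 3, the library with 1076 galanin reads, held 0 reads of NPY.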
